A study of Mus musculus with 2 samples.

Results

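The genes described here make proinsulin (Ins1 and Ins2), cut it to insulin (Pcsk1, Pcsk2 and Cpe) or control its transcription in islet cells (Pdx1, Neurod1 and Mafa). They are 8 of 21360 genes that could be named on the arrays and hold 12 of 28319 named probes. The genes were listed by name, and every probe that a reference table assigns to them is given. The study asked how gene expression in hematopoietic stem cells differs between STZ-induced diabetic and nondiabetic mice. RNA came from LSK cells, bone marrow cells sorted as lineage-negative, Sca-1-positive and c-kit-positive, which hold hematopoietic stem cells and early progenitors. One group was nondiabetic mice, and the other was mice made diabetic with streptozotocin (STZ), a toxin that kills the insulin-producing β cells of the pancreas. Both were C57BL/6J mice given as female in the labels, whereas the reporting form of the study gives male mice. Age and the time after STZ are not given for the arrays. For each group 1 array of the 1-colour Agilent type was hybridized, labelled n = 3 for mice and made from 8.3 ng of total RNA after amplification.

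In the β cell, proinsulin is made as a precursor, folded in the endoplasmic reticulum and packed into secretory granules. There the prohormone convertases encoded by Pcsk1 and Pcsk2 cut it at pairs of basic residues, and carboxypeptidase E, encoded by Cpe, trims the residues that are left, which frees insulin and C-peptide. Mice have a pair of insulin genes. Ins2 is the ancestral copy, and Ins1 arose from it by retroposition. Pdx1, a homeodomain factor, Neurod1, a basic helix-loop-helix factor, and Mafa, a basic leucine zipper factor, bind the insulin promoters and act together in β cells.

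Values are intensities processed by the scanner software, in arbitrary units, with the software's own error estimate for the spot after ±. Each of the 12 probes was printed as 1 spot. Ratios are diabetic over nondiabetic on the log2 scale, after each array was scaled to its 75th percentile (168 on the nondiabetic and 182 on the diabetic array), and their ± carries the errors of both spots. A probe counted as measured where the software marked its spot as well above background, for which the lowest intensity was 10.2 on the nondiabetic and 10.1 on the diabetic array. Where this held on 1 array only, the ratio is a bound taken against that lowest intensity or against the dim spot itself, whichever was higher. Against the dim spot itself the value is a plain ratio, with the error of that spot on both sides. With 1 array per group there was no replicate check and no test, and differences between mice, sorts or amplifications cannot be told apart from those between the groups. Fewer cells of a type and less RNA per cell cannot be told apart. Probes bind with different strength, so intensities of different probes are not read as relative levels of their genes. The brightest probe of a gene is the one its ratio was taken from.

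Of the 308 negative control spots, the median intensity was 2.35 on the nondiabetic and 2.32 on the diabetic array, and the brightest was 466 and 6.84, with the next on the nondiabetic array at 10.7. The software marked 62.7% of the non-control spots of the nondiabetic array as well above background and 63.9% of those of the diabetic array, and 0 as saturated. Both arrays were on 1 slide. The genes of the sort were measured on both arrays, with Kit at 4635 and 4735 and Ly6a, which encodes Sca-1, at 475 and 701. Of 11 stem cell genes, 10 were well above background on the nondiabetic and 11 on the diabetic array, with a summed intensity of 18777 and 22345. Genes that mark mature blood cells were read as well. The counts of all these lists stand beside the shares over all named genes. Of those, 63.1% had a probe well above background on both arrays and 71.3% on at least 1. Whether mature cells were in the samples was not tested. Well above background on the nondiabetic and diabetic array were 4 and 4 of 6 B cell genes (summed intensity 217 and 301), 4 and 3 of 6 T and NK cell genes (1281 and 1253, mostly Cd4 at 971 and 1019), 7 and 6 of 7 granulocyte and monocyte genes (40607 and 40613, mostly Itgam at 34686 and 35189) and 5 and 5 of 6 erythroid genes (3243 and 7187). For stroma and endothelium these were 3 and 3 of 6 genes (278 and 1009, mostly Pecam1 at 162 and 936). Cdh5 and Col1a1 of this list were well above background on neither array. Within these lists single genes lay past 2-fold in both directions. Of the stem cell genes, Slamf1 was at least 2.59-fold higher in diabetic cells and Mecom 2.30-fold lower. In the other lists Cd79a (2.85-fold), Hba-a1 (2.31-fold), Hbb-b1 (2.03-fold) and Pecam1 (5.32-fold) were higher. Cd3d and Cd3g (each at least 2.74-fold), S100a8 (2.78-fold) and Col1a2 (2.10-fold) were lower. The median log2 ratio of the stroma and endothelium list was -0.45, over 3 genes with a ratio or bound. It is the value of Cxcl12, at 14.1 and, not well above background, at 11.3 in diabetic cells.

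Of the 8 genes, 7 had a probe well above background on at least 1 array, as had 71.3% of all named genes, and 5 (62.5%) had one in both nondiabetic and diabetic LSK cells, namely Ins1, Ins2, Pcsk2, Pdx1 and Mafa. Over all named genes this share was 63.1%, so the share among the 8 genes was close to that of the arrays as a whole. Cpe was well above background in nondiabetic cells only, Neurod1 in diabetic cells only and Pcsk1 in neither. By their brightest probe, 0 of the 7 genes that had a ratio or bound were at least 2-fold higher in diabetic cells, where 11.0% of all 15192 such genes were. On the lower side 2 of the 7 passed 2-fold, Ins1 and Cpe, where 10.1% of all genes were. The median log2 ratio of the 7 genes was -0.10 and that of all genes 0.02.

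**Figure D1:**
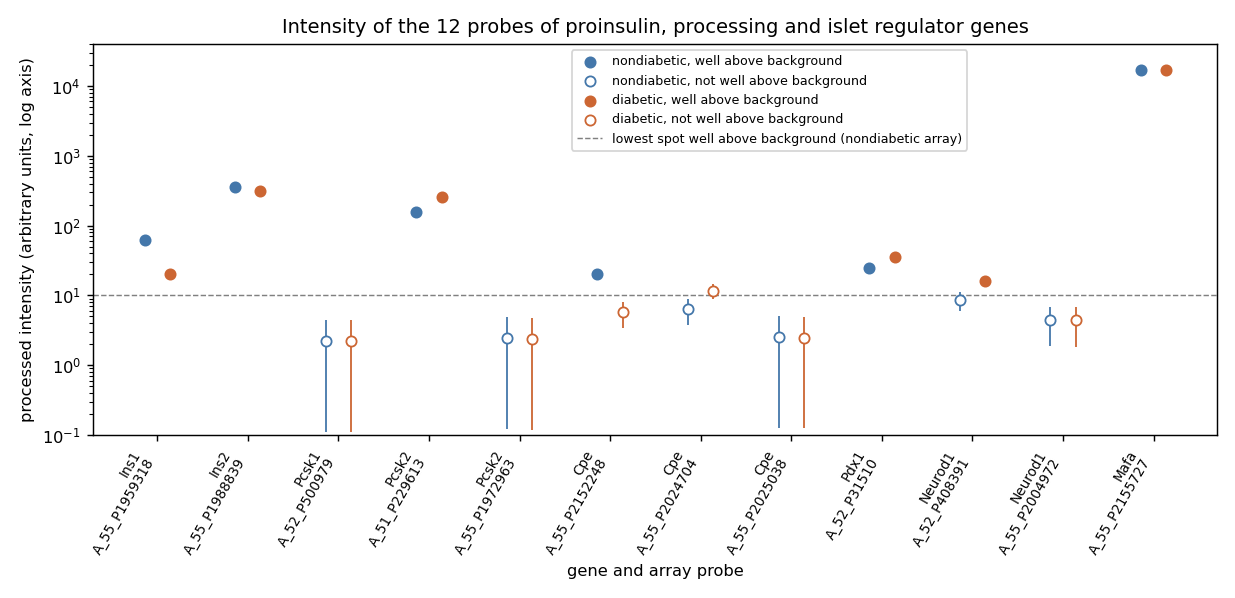
Processed intensity (log axis, arbitrary units) of the 12 probes on the nondiabetic (blue) and the diabetic array (orange), filled where the spot was well above background and open where it was not. Error bars are the software's error estimate of 1 spot, hidden by the point where smaller and cut short just above 0 where the error reaches 0, and the dashed line is the lowest intensity well above background on the nondiabetic array (10.2). The probe of Mafa lies at 16791 and 16959, Ins1 drops from 62.7 to 20.0, and the probe of Pcsk1 lies near the median of the negative controls on both arrays.

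Ins1 (probe A_55_P1959318) gave an intensity of 62.7 ± 6.74 in LSK cells of nondiabetic mice and of 20.0 ± 3.22 in those of diabetic mice. The signal was thus lower in diabetic cells, and by the software's errors the spots were well apart. After scaling, Ins1 was 3.40-fold lower, a log2 ratio of -1.76 ± 0.28. Of the 308 negative control spots, 1 reached the Ins1 probe in the nondiabetic sample and 0 in the diabetic sample. With measured probes split by intensity into 3 equal groups, Ins1 lay in the dimmest, in which 23.0% of genes were at least 2-fold apart in either direction. In that group, 88 probes printed at least 5 times had a median SD between spots of 0.25 on the log2 ratio, which covers error between spots and not the spread between mice, sorts or amplifications. Under normexp background correction, which adds an offset of 50 to each intensity, the log2 ratio of Ins1 was -0.66 and no longer past 2-fold. Over all genes, 3.29% were at least 2-fold lower under normexp, beside 10.1% without it.

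Ins2 (probe A_55_P1988839) gave 360.1 ± 36.1 in nondiabetic and 314 ± 31.5 in diabetic cells. Its log2 ratio was -0.31 ± 0.20, a 1.24-fold difference. The errors of the spots overlapped before scaling, whereas the scaled ratio was larger than its error. Signal from both proinsulin genes was therefore well above background in both groups, Ins1 being lower in diabetic cells by more than 2-fold and Ins2 by less. The gap between the log2 ratios of Ins1 and Ins2 was not tested. The sequences of the probes were not used here, and Ins1 and Ins2 have closely similar coding sequences, and whether the probes share signal was not tested.

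Among the genes for proinsulin processing, Pcsk2 alone had a probe well above background on both arrays. This probe, A_51_P229613, read 157.5 ± 15.9 in nondiabetic and 255 ± 25.6 in diabetic cells, which is a log2 ratio of 0.58 ± 0.21 and a fold of 1.49. Diabetic cells were higher here, below the 2-fold limit. The probe was in the middle group by intensity, where 25.1% of genes were at least 2-fold apart. The second Pcsk2 probe (A_55_P1972963) gave 2.42 ± 2.43 and 2.36 ± 2.36, neither of them well above background. At or above it were 125 of the 308 negative control spots in the nondiabetic and 134 in the diabetic sample. The statement that Pcsk2 was measured thus rests on 1 of its 2 probes, which the reference table assigns to the same transcript. Such a split, with 1 probe measured on both arrays and another on neither, was found in 19.0% of the 5751 genes with several probes.

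Pcsk1, which encodes the other convertase, was not well above background. Its single probe (A_52_P500979) read 2.20 ± 2.21 in nondiabetic and 2.23 ± 2.24 in diabetic cells. At or above it were 234 and 190 of the negative control spots, so the probe was within the range of the controls on both arrays and has no ratio.

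Cpe had 3 probes, of which 1 was well above background, and that on 1 array. The brightest (A_55_P2152248) read 20.1 ± 3.00 in nondiabetic cells. In diabetic cells it was at 5.80 ± 2.33, not well above background, and so at least 2.17-fold lower. The second (A_55_P2024704) gave 6.34 ± 2.55 and 11.7 ± 2.72, neither of them well above background, although the software marked both spots as significant over background. The third (A_55_P2025038) lay at 2.53 ± 2.54 and 2.49 ± 2.50. The lower value of Cpe in diabetic cells therefore belongs to 1 dim probe. Its log2 ratio was -0.35 under normexp and -0.98 with values floored at the lowest intensity well above background, both short of 2-fold.

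Among the regulators of insulin transcription, the probe of Mafa gave a strong and nearly equal signal in both groups. Mafa (probe A_55_P2155727) read 16791 ± 1679 in nondiabetic and 16959 ± 1696 in diabetic cells. Of the negative control spots, 0 reached this on either array. Its log2 ratio was -0.10 ± 0.20, and the intensities overlapped within the errors of the spots. Mafa and Ins2 were in the brightest group by intensity, where 8.01% of genes were at least 2-fold apart and the median SD between spots was 0.07. No second probe was assigned to Mafa, so its signal has no check by another probe.

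Pdx1 (probe A_52_P31510) read 24.4 ± 3.42 in nondiabetic and 35.1 ± 4.25 in diabetic cells, with a log2 ratio of 0.41 ± 0.27. It was dim and higher in diabetic cells by 1.32-fold, below the 2-fold limit. Under normexp the log2 ratio of Pdx1 was 0.06. Neurod1 had 2 probes. The brighter (A_52_P408391) was not well above background in nondiabetic cells at 8.52 ± 2.60 and was at 16.1 ± 2.86 in diabetic cells, at least 1.45-fold higher. The other (A_55_P2004972) lay at 4.41 ± 2.53 and 4.38 ± 2.56, both times not well above background. All of the regulators were thus well above background in diabetic cells, Neurod1 by 1 of its probes, and Pdx1 and Mafa were so in nondiabetic cells.

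**Figure D2:**
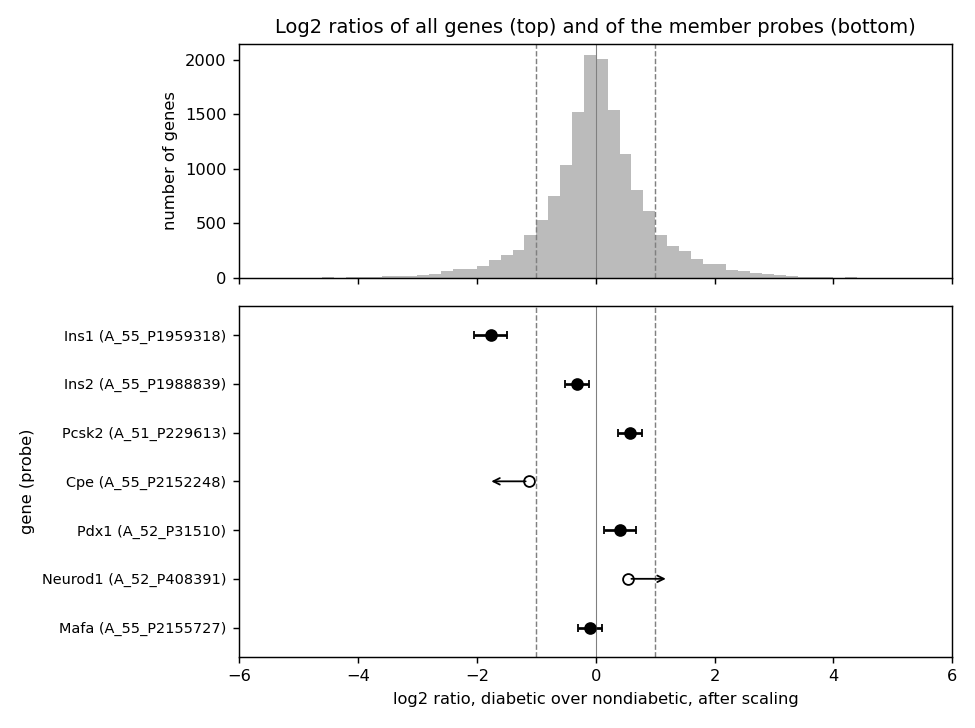
Top, the number of genes by log2 ratio (diabetic over nondiabetic, after scaling, brightest probe) over 15192 genes, with values beyond ±6 in the end bins. Bottom, the 7 member probes with a ratio (filled, bars are the software's error) or a bound (open, with an arrow to the side on which the ratio may lie); dashed lines mark 2-fold. Ins1 at -1.76 and the bound of Cpe lie past 2-fold on the lower side, and the other 5 lie within it.

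The wider islet pathway was read in 60 genes on 4 lists, of which 28 were measured on both arrays, 3 on 1 and 29 on neither. Of all named genes, 63.1% had a probe measured on both arrays and 71.3% on at least 1. The counts of each list below stand beside these shares. A ratio or bound could be given for 31. Of these, 2 were higher by at least 2-fold in diabetic cells and 2 lower, beside 11.0% and 10.1% over all genes. The median log2 ratio was 0.07. Under normexp the counts were 1 and 0, beside 3.96% and 3.29% over all genes. With no filter on dim probes they were 5 and 5, beside 11.4% and 10.7%.

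Prohormone processing and granule genes numbered 21, of which 15 were measured on both arrays, with a median log2 ratio of -0.08. Ero1b, an oxidase for disulfide bonds in the endoplasmic reticulum that helps proinsulin fold, was at 125.2 ± 12.7 in nondiabetic and 411 ± 41.2 in diabetic cells, 3.03-fold higher. Rab3a, a small GTPase of granule exocytosis, was at 104.5 ± 10.7 and 41.6 ± 4.74, which is 2.72-fold lower. Both rest on 1 probe. Pcsk4, a convertase best known from germ cells, had a log2 ratio of 0.98 and lay just inside the limit. Furin, a convertase of the constitutive secretory pathway present in most cells, had intensities of 572 and 1073, a log2 ratio of 0.79. The convertase gene Pcsk7 went the other way, at 140.5 and 103.7, a log2 ratio of -0.55. Pcsk5 and Pcsk6 were well above background on neither array. By mean log2 intensity over both arrays, the brightest probes of the list were those of Pam, which amidates peptide hormones, at 1062 and 1266, and of Pcsk1n, which encodes the Pcsk1 inhibitor proSAAS, at 854 and 846. The granule proteins Chga and Chgb were well above background on neither array.

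Of 22 islet transcription factors on the arrays, 5 were measured on both and 15 on neither, Pax4, Pax6, Isl1 and Foxa2 among the latter. Hnf4a, a nuclear receptor of liver and islet cells, was at 17.9 ± 2.74 in nondiabetic and 62.5 ± 6.59 in diabetic cells, 3.22-fold higher and the single member of the list past 2-fold. It rests on 1 probe, whose nondiabetic value was not far above the lowest intensity well above background, 10.2. Nkx2-2, at 268 and 306, and Rfx3, at 127.3 and 162.3, were the brightest of the list by the same mean, with log2 ratios of 0.07 and 0.23. The median over the 7 with a ratio or bound was 0.23.

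Among 12 genes for glucose sensing and secretion, 6 were measured on both arrays and 5 on neither, with a median log2 ratio of 0.02. Abcc8, the sulfonylurea receptor subunit of the potassium channel of β cells, was at 359 and 382, a log2 ratio of -0.03. Cacna1d, a calcium channel subunit, was at 25.6 ± 3.68 in nondiabetic cells and, no longer well above background, at 10.7 ± 2.81 in diabetic cells. Taken against this dim spot, it was 2.60-fold lower. Its other probe (A_51_P251209) went the other way, from 2.40, not well above background, to 12.6, at least 1.13-fold higher. The glucose transporter gene Slc2a2 and Iapp, whose product amylin is secreted with insulin, were well above background on neither array.

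Of 5 other islet hormone genes, Ghrl (ghrelin, 129.1 and 136.3, log2 ratio -0.04) and Pyy (20.4 and 19.0, log2 ratio -0.23) were measured on both arrays. Gcg, Sst and Ppy, which encode glucagon, somatostatin and pancreatic polypeptide, were measured on neither. Markers of other secretory cells stood as follows. Their counts stand beside the 63.1% of all named genes measured on both arrays and the 71.3% measured on at least 1. Of 6 exocrine pancreas genes, 3 were well above background in each sample, with summed intensities of 273 and 353. Cpa1 was 5.46-fold higher in diabetic cells, taken against its dim nondiabetic spot of 12.7 ± 2.92. Prss2 was at least 2.89-fold lower, while Cela1 and Pnlip were well above background on neither array. Of 8 neuroendocrine genes, 4 were well above background in the nondiabetic and 3 in the diabetic sample, with summed intensities of 19954 and 19678, nearly all from Snap25 at 19816 and 19569. Uchl1 was 4.72-fold lower in diabetic cells, taken against its dim diabetic spot of 10.5 ± 2.59, and Syt1, Stx1a, Chga and Chgb were not well above background. The part of such cells in the values of Ins1, Cpe or Mafa was not tested.

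**Figure D3:**
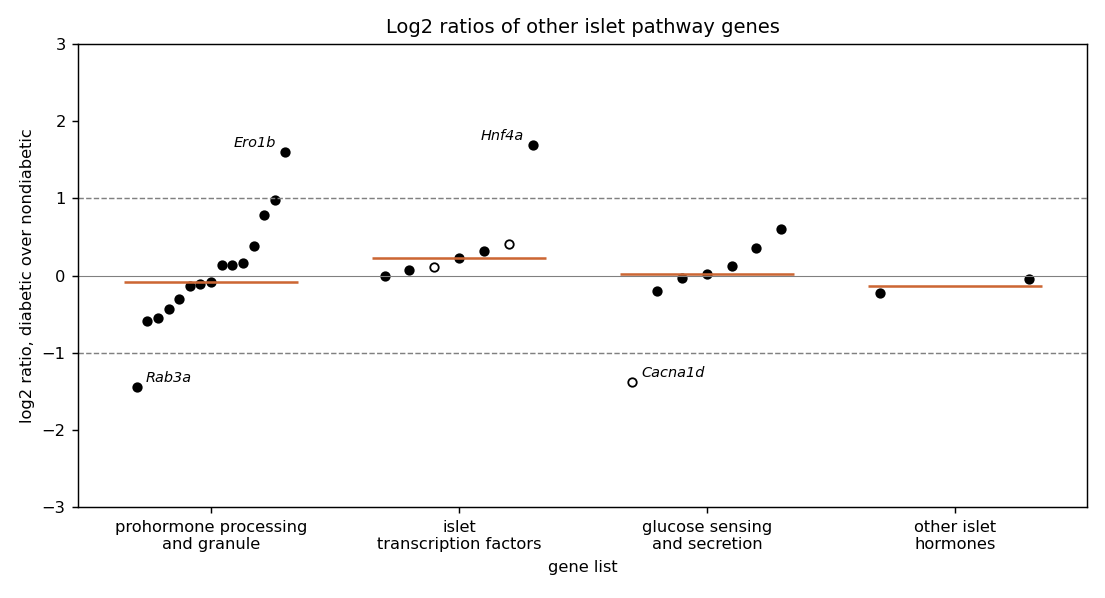
Log2 ratio (diabetic over nondiabetic, after scaling) of the 31 genes of the 4 islet pathway lists with a ratio (filled) or a bound (open), ordered within each list, with the list's median as an orange line and 2-fold as dashed lines. Ero1b and Hnf4a lie above the upper limit, Rab3a and Cacna1d (open, a ratio to its dim spot) below the lower one, and the medians lie between -0.13 and 0.23.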

How the data were processed

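LSK cells were sorted from bone marrow after Ficoll separation, and amplified RNA was hybridized to 1 array per group. The deposited scanner files come from Agilent Feature Extraction 11.5.1.1, and their processed intensity was background-corrected within each array but not normalized between arrays. Their grid names build mm9, whose coordinates were not needed. A further table deposited by the authors holds intensities, in which each of the 59305 spots was the scanner's value times 1 constant per array (log2 factor 3.48 and 3.35).

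Here intensities were converted to log2, the 75th percentile of the non-control spots was subtracted per array, outlier spots of either array were dropped from both, and spots of a probe were averaged, which left 55661 of 55681 probes. Probes were named through the RefSeq transcripts and Ensembl identifiers of a reference table for GRCm38.p6, which named 31845 of 59305 spots. The brightest probe stood for a gene in counts. Precision is limited by the number of arrays, and no test was made. The genes to be named were all members with every probe and, from each pathway list, genes at least 2-fold apart and the 2 brightest. A gene that this rule names is not reported here. Members and lists were chosen with earlier results of these data known. Other genes named here were chosen after their values were seen. Marker lists were stem cell, B cell, T and NK cell, granulocyte and monocyte, erythroid, stroma and endothelium, exocrine pancreas and neuroendocrine. Alternatives were normexp (offset 50, on median spot and background intensity), quantile normalization, median centring, loess, no filter, measured on both arrays only, the mean over probes, the authors' table, a floor at the lowest intensity well above background and, added after seeing the data, the software's looser flag of significance over background. Steps were tested on simulated data. Python 3.11.15 with numpy 2.4.6, pandas 2.3.3, statsmodels 0.14.6 and matplotlib 3.10.9, and R 4.3.3 with limma 3.58.1, were used.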

Additional observations from a re-analysis of the deposited data

How the results depend on the processing

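The count of member genes at least 2-fold higher stayed at 0 under all 10 alternatives, and the median log2 ratio of the members lay between -0.10 and -0.02. Of these alternatives, the authors' table gives the main values by construction, since it holds the scanner's values times 1 constant per array. At least 2-fold lower were 2 members under 7 of the 10 alternatives, against 0 under normexp, where Ins1 had a log2 ratio of -0.66, and 1 with only probes measured on both arrays or with the floor, since Cpe has only a bound. Member probes past 2-fold numbered 0, 1 and 1 under these same settings. Normexp changed the input, the background method and the offset together, and the cause was not tested. Of the alternatives that could move the ratio of a probe measured on both arrays, quantile normalization, median centring and loess left Ins1 past 2-fold and normexp did not. The other settings gave Ins1 the same ratio. Mafa ranged from -0.10 to -0.02, and Pdx1 from 0.06 under normexp to 0.45. Pathway genes at least 2-fold higher and lower numbered 1 and 0 under normexp, 5 and 5 with no filter, and 5 and 5 with the looser flag, chosen after seeing the data. Those lower numbered 1 with only probes measured on both arrays and 1 with the mean over probes. Over all genes, 3.96% were higher and 3.29% lower under normexp, 11.4% and 10.7% with no filter, and 13.0% and 12.2% with the looser flag. Lower were 8.44% of all genes with only probes measured on both arrays, 7.01% with the floor and 9.55% with the mean over probes. Leaving out a replicate was not possible. No paired analysis was possible because each group has 1 array. Signal over background leaves Pcsk1 without a ratio and Cpe and Neurod1 with a bound.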

Other observations

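The genes next to the members and the relatives of Mafa were read after the members' values were seen. Of the 16 protein-coding genes that flank the 8 members in the reference table, 14 were measured in nondiabetic and diabetic LSK cells, 0 were at least 2-fold higher in diabetic cells and 2 at least 2-fold lower, with a median log2 ratio of -0.21. Over all named genes 63.1% were measured on both arrays, 11.0% of those with a ratio or bound were at least 2-fold higher and 10.1% lower, and the median was 0.02. Igf2, the growth factor gene beside Ins2, was at 21.4 ± 3.30 in nondiabetic cells and not well above background in diabetic cells at 7.13 ± 2.65, at least 2.31-fold lower. Th, which encodes tyrosine hydroxylase and lies on the other side of Ins2, was at 452 and 507, a log2 ratio of 0.05. Beside Ins1, the brighter probe of Sorcs1 had a log2 ratio of -0.60 and Xpnpep1 one of -0.21. Beside Pcsk2, Bfsp1, a lens filament gene, was at 49.4 and 16.6, 3.24-fold lower, where Pcsk2 itself was higher. The genes beside Mafa were dim and little apart, Rhpn1 at 17.9 and 19.8 and Zc3h3 at 50.9 and 62.0.

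Of 5 other genes of the MAF family that were read, 2 were measured in both samples and 1 has a bound. The other 2, Maff and Nrl, were well above background in neither. Over all named genes 63.1% were measured on both arrays and 71.3% on at least 1. Mafg, a small MAF protein without a transactivation domain, had 3 probes with log2 ratios of 0.27 (A_66_P116632, the brightest), -0.49 and -1.99. Mafk, of the same kind, had a log2 ratio of 0.99. Maf was at 21.2 in nondiabetic cells and at least 2.29-fold lower in diabetic cells, where 10.1% of all genes were at least 2-fold lower.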
